A study of Mus musculus with 4 samples.

Results

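The ligands, receptors and Smads of the TGF-beta and bone morphogenetic protein (BMP) family were examined in ATDC5 cells, a mouse chondrogenic line, after a knockdown of Chadl. Members were chosen by gene name, as every probe set annotated to exactly 1 gene that was Bmp2 to Bmp15, a numbered Gdf gene, Tgfb1 to Tgfb3, Inha, Inhba, Inhbb, a TGF-beta or BMP receptor, an Acvr gene or Smad1 to Smad9. This gave 72 of 45141 probe sets, for 40 of 17097 genes. They were 29 probe sets for 20 ligand genes, 27 for 12 receptor genes and 16 for 8 Smad genes. Genes of this rule that no such probe set names here, among them Bmp3 and Inhbb, were not analysed here, nor were 2 probe sets that Acvr2a shares with another gene.

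The 2 control arrays came from cells given a scrambled negative control duplex and the 2 knockdown arrays from cells given a 27-mer duplex against CHADL, which the labels call an shRNA, at 30 nM. In all 4 samples the transfection medium was replaced after 16 h by differentiation medium, and RNA was taken at 5 days of differentiation. The knockdown rests on 1 duplex sequence, the only effective one per the labels, in 1 cell line. The labels call the arrays biological replicates and name no separate cultures. The p-values therefore rest on the spread among these 4 arrays, part of which could be technical. Values are log2 signals per probe set after the authors' RMA normalization, and a difference is the knockdown mean minus the control mean on that log2 scale. Probe sets differ in how they bind their target, so levels are compared between arrays and not between genes.

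Members of this family are secreted dimers that bring type II and type I receptor kinases together on the cell surface. The type I kinase then phosphorylates a receptor-regulated Smad, Smad1, Smad5 or Smad9 for BMP signals and Smad2 or Smad3 for TGF-beta and activin signals, which joins Smad4 and enters the nucleus. In growth plate cartilage BMP signals drive chondrocyte differentiation and hypertrophy, while TGF-beta supports the condensation of progenitors and restrains hypertrophy.

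The targeted gene Chadl read 4.91 and 4.84 with the control duplex, 4.29 in knockdown 1 and 4.64 in knockdown 2, below both controls but not past the test over all probe sets (difference -0.41, SE 0.12, limma adjusted p = 0.608). Knockdown 1 stood apart from the other arrays. Among probe sets at or above the median signal, the SD of the difference between the knockdown arrays was 2.13 times that between the controls. The mean log2 signal of the 5 osteoblast markers measured, of 8 listed, was 7.91 and 7.89 in the controls, 6.63 in knockdown 1 and 7.56 in knockdown 2. The shift was uneven among these genes. Ibsp differed by -3.13 in knockdown 1 and -1.14 in knockdown 2, Bglap by -1.13 and -0.03, and Col1a1 by -0.12 and -0.15. Their median differences were -1.13 and -0.15 over the 5 genes. The mean log2 signal of the 12 chondrocyte markers was 5.35 and 5.38 in the controls, 5.05 in knockdown 1 and 5.33 in knockdown 2. Each gene was read by its probe set of highest signal. Of these 12, 4 lay below both controls on both knockdown arrays, against 17.1% of all genes, and 0 above, against 21.2%. The other 8 overlapped, among them Sox9 (difference -0.0026), Acan (-0.01) and Sox6 (0.04). Col2a1, also of these 8, differed by -0.82 in knockdown 1 and 0.12 in knockdown 2. At an unadjusted p of 0.05, 3 of the 12 were lower, against 2.56% of all genes, and 0 higher, against 4.4%. The lower ones were Col11a2 (difference -0.36), Hapln1 (-0.41) and Sox5 (-0.25), with limma adjusted p of 0.577, 0.636 and 0.659. For leukocytes (6 of 8 genes measured) the mean lay between 3.91 and 3.93 on all arrays, for endothelium (6 of 6) between 3.64 and 3.72, for muscle (6 of 6) between 4.10 and 4.15 and for adipocytes (5 of 6) between 4.47 and 4.61. Single genes of these 4 lists read higher, up to 7.34 for Lpl on knockdown 1. Of their genes, 3 were higher at an unadjusted p of 0.05, against 4.4% of all genes, and 0 were lower, against 2.56%. These were Vwf (difference 0.39), Myog (0.29) and Fabp4 (0.20), with limma adjusted p of 0.611, 0.68 and 0.648. All 3 lay below the median signal of all probe sets, at percentiles 19.6, 37.6 and 9.2. In bulk RNA, fewer cells of a type and less RNA per cell cannot be told apart, and the part of these shifts in the results on family members was not tested.

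No member of the family passed the test over all probe sets. Of 72 member probe sets 0 passed an adjusted p of 0.05 in limma, against 1 of 45037 probe sets tested, or 0.00222%. The lowest adjusted p of a member was 0.567, for Gdf5. At an unadjusted p of 0.05, 4 member probe sets were lower (5.56%), against 3.83% of all probe sets, and 5 were higher (6.94%), against 3.42%. Both knockdown arrays lay below both controls for 12 members (16.7%), against 19.9% of all probe sets, and above both for 14 (19.4%), against 18.6%. The median difference of the members was 0.01, against -0.0018 over all probe sets, and the median size of the difference, sign left out, was 0.07 for the members and 0.07 for all. No member differed by more than 0.5. Probe sets below the median signal of all probe sets are called dim. Of the 34 member probe sets at or above it 0 passed, against 0.00444% of all such probe sets. At an unadjusted p of 0.05, 2 of them were lower, against 4.96%, and 2 higher, against 4.29%. Both knockdown arrays lay below both controls for 4, against 21.0%, and above both for 8, against 20.1%. For these 34 the 95% confidence intervals together ran from -0.66 to 0.64. RMA compresses the change of dim probe sets, so these limits apply to array signal and not to RNA.

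**Figure D1:**
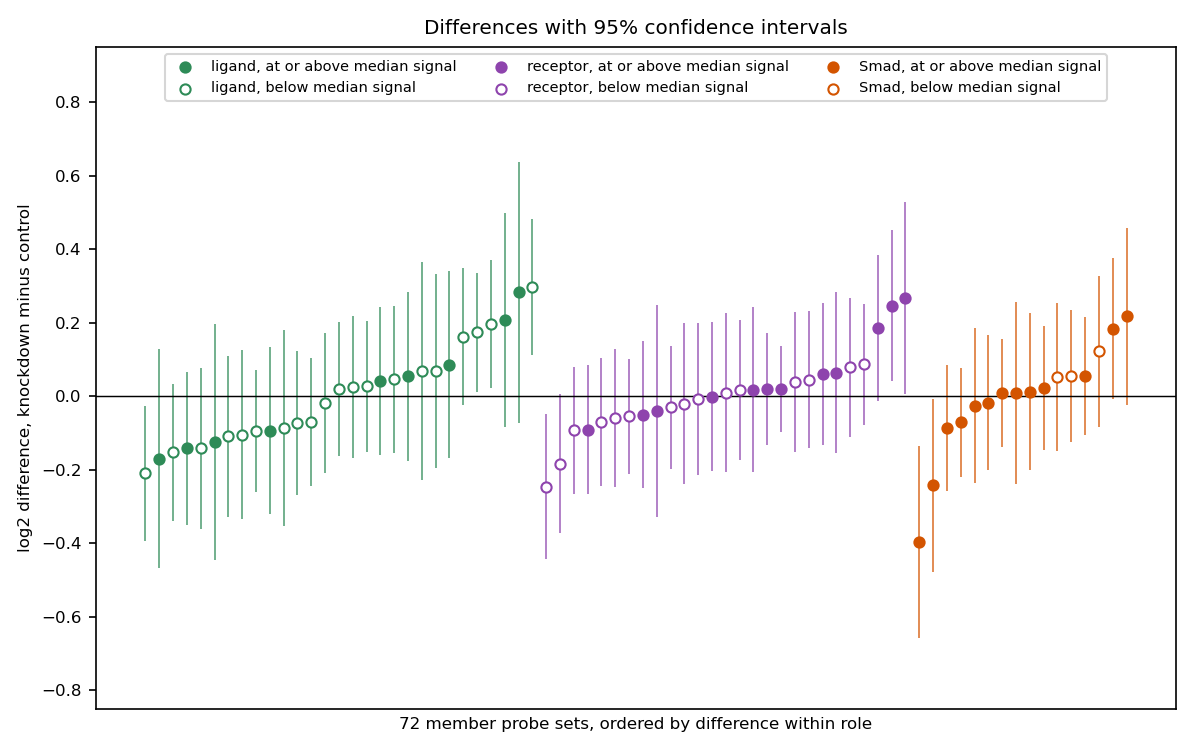
Log2 difference, knockdown minus control, for each of the 72 member probe sets on the vertical axis, ordered along the horizontal axis within ligands (green), receptors (purple) and Smads (orange). Bars are 95% confidence intervals of the limma fit and open symbols mark probe sets below the median signal; 63 of 72 intervals cross 0.

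Among ligands, Tgfb2, Tgfb3 and Inhba differed mainly in knockdown 1. Tgfb2, an isoform made in cartilage, read 7.43 and 7.30 with the control duplex against 7.01 and 7.39 after knockdown, so knockdown 1 was low and knockdown 2 lay between the controls (difference -0.17, SE 0.13). Tgfb3, the isoform used to induce chondrogenesis in culture, read 5.79 and 5.82 against 6.19 and 5.83, which is high in knockdown 1 and just above the controls in knockdown 2 (difference 0.21, SE 0.12). Inhba encodes the subunit of activin A and read 6.41 and 6.47 against 6.97 and 6.47, again with knockdown 2 just above the upper control (difference 0.28, SE 0.15). A dim second probe set of Inhba differed by -0.15, the other way. The limma adjusted p was 0.798, 0.746 and 0.718 for Tgfb2, Tgfb3 and Inhba on their probe sets of highest signal. Tgfb1 lay below the median signal, at 3.60 and 3.83 against 3.51 and 3.75, and Inha, the inhibin subunit, at 3.50 and 3.45 against 3.58 and 3.70.

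**Figure D2:**
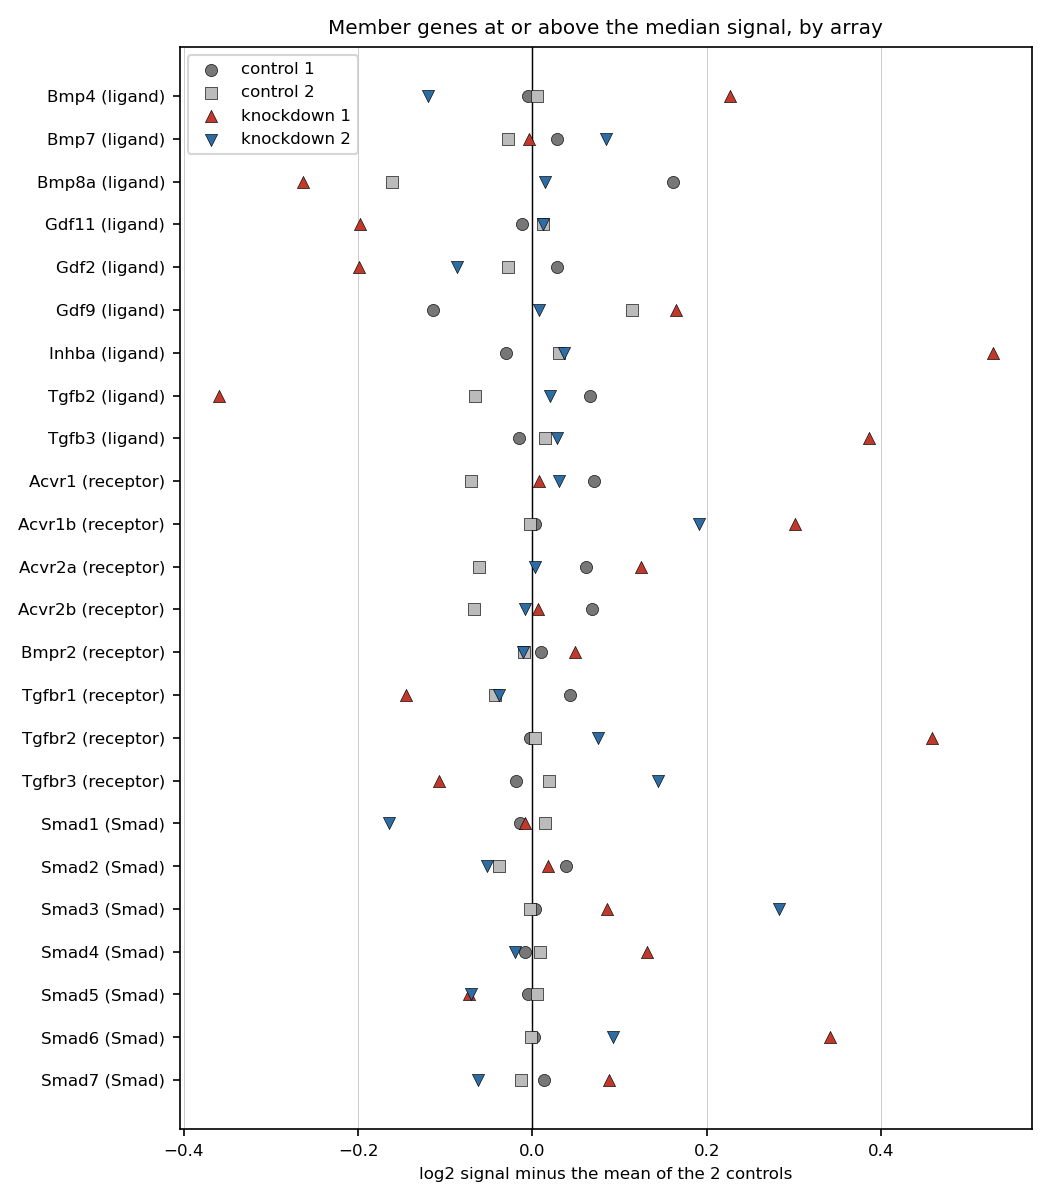
Log2 signal of each array minus the mean of the 2 controls (horizontal axis) for the 24 member genes whose probe set of highest signal is at or above the median; each symbol is 1 array. Knockdown 1 (red) is the far point for Inhba, Tgfb3, Tgfb2 and Tgfbr2, and knockdown 2 (blue) for Smad3 and Smad1.

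The BMP ligand Bmp4, which promotes chondrocyte differentiation, showed opposite shifts in the 2 knockdown arrays. It read 9.99 and 10.00 with the control duplex, then 10.22 in knockdown 1 and 9.87 in knockdown 2, for a mean difference of 0.05 (SE 0.10). Bmp7, known from skeletal and kidney development, read 4.72 and 4.66 against 4.69 and 4.78 on its brightest probe set and overlapped. A dim Bmp7 probe set read 3.03 and 3.07 against 3.26 and 3.19 (difference 0.17, SE 0.07, unadjusted p = 0.038, limma adjusted p = 0.668), and the other dim one differed by -0.10. Bmp8a, a relative of Bmp7, read 4.57 and 4.25 against 4.15 and 4.42, a spread between the controls as large as any shift. Its near-identical neighbour gene Bmp8b, whose probes may share targets with it, read 3.29 and 3.34 against 3.46 and 3.55 on a dim probe set (difference 0.20, SE 0.07, unadjusted p = 0.0318, limma adjusted p = 0.666), while its brighter probe set differed by 0.05. Values of both genes are therefore uncertain.

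Among growth differentiation factors, Gdf5 gave the smallest p of the family. Gdf5 is a joint and cartilage ligand expressed where synovial joints form. Its single probe set read 3.52 and 3.63 with the control duplex against 3.88 and 3.87 after knockdown, above both controls by alike amounts on both arrays (difference 0.30, SE 0.08, 95% confidence interval 0.11 to 0.48, 1.23-fold higher, unadjusted p = 0.0066, limma adjusted p = 0.567). The probe set lay at the 30.6th percentile of signal. Gdf2, also called BMP9, read 5.17 and 5.11 against 4.94 and 5.05, below both controls (difference -0.14). Gdf11, a patterning factor of the axial skeleton, read 4.42 and 4.44 against 4.23 and 4.44 and overlapped. Gdf9, known from the oocyte, did so too at 4.37 and 4.60 against 4.65 and 4.49. Bmp10, known from the heart, was dim and read 4.17 and 4.16 against 3.93 and 3.99 (difference -0.21, SE 0.08, unadjusted p = 0.0308, limma adjusted p = 0.665).

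Many members were dim. For 16 of the 40 member genes even the probe set of highest signal was below the median of all probe sets, 4.24 as a mean over arrays. They were the 11 ligand genes Bmp2, Bmp5, Bmp6, Bmp8b, Bmp10, Bmp15, Gdf3, Gdf5, Gdf10, Inha and Tgfb1, the 4 receptor genes Acvr1c, Acvrl1, Bmpr1a and Bmpr1b, and Smad9. On those probe sets the signals ran from 2.94 to 4.30 over all arrays. Bmp2, a driver of chondrogenesis, read 3.01 and 2.98 against 3.10 and 2.94. Bmp6, known from hypertrophic chondrocytes, differed by 0.07. Of these 16 genes 3 lay below both controls on both knockdown arrays, against 17.1% of all genes on the probe set of highest signal, 3 lay above, against 21.2%, and 10 overlapped.

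Of the type II receptors, Tgfbr2 showed the largest difference, again mainly in knockdown 1. Tgfbr2 binds TGF-beta and starts the signal, and it read 9.00 and 9.01 with the control duplex against 9.46 and 9.08 after knockdown (difference 0.27, SE 0.11, 1.20-fold higher, unadjusted p = 0.0463, limma adjusted p = 0.68). A second probe set lay above both controls by 0.06 and another, dim one differed by -0.02. Bmpr2, which serves BMP ligands, read 9.28 and 9.26 against 9.32 and 9.26 and differed by 0.02 (95% confidence interval -0.10 to 0.14). Its second probe set differed by -0.04. The activin receptor gene Acvr2a read 5.91 and 5.79 against 5.97 and 5.85 and overlapped. Acvr2b, its relative, read 4.32 and 4.19 against 4.26 and 4.25 on its brightest probe set, which overlapped. A dimmer Acvr2b probe set read 4.14 and 4.09 against 3.93 and 3.81 (difference -0.25, SE 0.08, unadjusted p = 0.021, limma adjusted p = 0.64), and the remaining one differed by 0.08, so the 3 probe sets did not point one way.

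The type I receptors also pointed in different directions. Acvr1b, the activin receptor ALK4, read 5.10 and 5.09 with the control duplex against 5.40 and 5.29 after knockdown, above both controls (difference 0.25, SE 0.09, 1.19-fold higher, unadjusted p = 0.0252, limma adjusted p = 0.648). Its dimmer probe set differed by -0.01. Tgfbr1, the partner of Tgfbr2, read 7.85 and 7.77 against 7.67 and 7.77, a difference of -0.09 with overlap, and its 2 dim probe sets differed by -0.09 and -0.03. Tgfbr3, the co-receptor betaglycan, read 7.50 and 7.53 against 7.41 and 7.66, with the knockdown arrays on either side of the controls. Acvr1, the BMP receptor ALK2, overlapped at 8.87 and 8.72 against 8.80 and 8.83, while a dimmer probe set of it read 5.84 and 5.77 against 5.98 and 6.01 (difference 0.19) and the remaining one differed by -0.05. The remaining BMP receptors were dim. Bmpr1a read 3.61 and 3.48 against 3.59 and 3.59 on its only probe set. Bmpr1b read 3.53 and 3.36 against 3.26 and 3.26 (difference -0.18), with no overlap. The endothelial receptor gene Acvrl1 differed by -0.07 and the activin-type receptor gene Acvr1c by 0.01.

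The most negative difference of the family was in a Smad. Smad5, which relays BMP signals, was read by 3 probe sets with unequal differences. One read 6.12 and 6.24 with the control duplex against 5.92 and 5.65 after knockdown, below both controls on both arrays (difference -0.40, SE 0.11, 1.32-fold lower, unadjusted p = 0.00878, limma adjusted p = 0.574). The probe set of highest signal read 8.05 and 8.06 against 7.98 and 7.98, a difference of -0.07, also with no overlap. Another read 5.63 and 5.38 against 5.52 and 5.50 and overlapped, so the larger difference was seen by 1 of 3 probe sets. Smad1, the close relative of Smad5 in the same branch, also lay lower on both of its 2 probe sets. Its dimmer one read 5.61 and 5.63 with the control duplex against 5.49 and 5.27 after knockdown (difference -0.24, SE 0.10, unadjusted p = 0.0448, limma adjusted p = 0.68). On its brighter one, 8.23 and 8.26 stood against 8.24 and 8.08, a difference of -0.09 in which knockdown 1 overlapped the controls. On the probe set with the largest difference of each of these genes, the larger shift was in knockdown 2. Smad9, the last member of the BMP branch, was dim and lay above both controls, at 3.77 and 3.59 against 3.82 and 3.78.

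Of the Smads of the TGF-beta and activin branch, Smad3 lay higher and Smad2 overlapped. Smad3 read 7.89 and 7.89 with the control duplex against 7.98 and 8.17 after knockdown, above both controls (difference 0.18, SE 0.08, unadjusted p = 0.0566, limma adjusted p = 0.692). Its other 2 probe sets lay below the median signal and differed by 0.06 and 0.05. Smad2 gave 7.13 and 7.05 against 7.11 and 7.04, and its second probe set differed by -0.03, so both overlapped. Smad4, the partner shared by both branches, differed by 0.06, 0.01 and 0.02 on 3 probe sets, at 8.56 and 8.58 against 8.70 and 8.55 on the one of highest signal. The difference between the branches was not tested.

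Of the inhibitory Smads, which are induced by the pathway and block it, Smad6 lay higher and Smad7 overlapped. Smad6 read 6.14 and 6.13 with the control duplex against 6.48 and 6.23 after knockdown (difference 0.22, SE 0.10, unadjusted p = 0.072, limma adjusted p = 0.703), with most of the shift in knockdown 1. Smad7 read 5.74 and 5.71 against 5.81 and 5.66, 1 knockdown array on each side.

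The sequences before the starts of Smad5, Smad1 and Tgfbr2 are shown because these are 3 of the 4 genes with a probe set that was both at or above the median signal and at an unadjusted p of 0.05. They come from RefSeq (GRCm38.p6), and of 3 Smad5 starts the one with GGCGCC was chosen. Each run gives the 250 bases before the start on the gene's strand. Capitals mark GGCGCC, a GC-rich Smad motif that is its own reverse complement, and CAGAC, the Smad box, on either strand.
Smad5, chr13:56702802-56703051, plus strand: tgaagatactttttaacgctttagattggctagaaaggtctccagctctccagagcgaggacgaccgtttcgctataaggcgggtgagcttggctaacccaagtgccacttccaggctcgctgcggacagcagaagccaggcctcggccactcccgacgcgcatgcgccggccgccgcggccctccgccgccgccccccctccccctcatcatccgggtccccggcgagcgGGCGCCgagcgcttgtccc
Smad1, chr8:79399429-79399678, minus strand: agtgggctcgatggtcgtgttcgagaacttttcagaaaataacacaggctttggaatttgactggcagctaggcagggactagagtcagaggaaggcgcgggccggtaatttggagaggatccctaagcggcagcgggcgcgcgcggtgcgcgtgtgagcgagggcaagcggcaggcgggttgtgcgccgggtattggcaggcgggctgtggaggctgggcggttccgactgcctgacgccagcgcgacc
Tgfbr2, chr9:116175364-116175613, minus strand: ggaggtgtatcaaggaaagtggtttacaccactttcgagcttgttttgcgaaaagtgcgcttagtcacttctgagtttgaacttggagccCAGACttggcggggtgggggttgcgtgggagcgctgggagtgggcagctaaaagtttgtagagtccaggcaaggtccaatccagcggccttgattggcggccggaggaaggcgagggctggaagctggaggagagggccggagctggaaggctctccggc

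The Smad5 run held GGCGCC with its first base at -19, counted back from -1 at the base before the start. The Tgfbr2 run held CAGAC at -160, and the Smad1 run held neither motif. Smad5 has 3 starts in the table; another window held CAGAC at -21 and no GGCGCC. Of 35 windows of 29 member genes in the table, GGCGCC lay in 5 (14.3%), against 9.59% of all 32851 windows, and CAGAC in 14 of the 35, against 42.2%. The palindrome GTCTAGAC lay in 0, against 0.167%. These matches describe the letters of the windows.

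Probe sets of the same gene did not always share a sign. Of 21 member genes with more than 1 probe set, 10 had at least 1 of opposite sign to the one of highest signal. Some of these differences were near 0, such as -0.0082 (SE 0.09) for the dimmer Acvr1b probe set. The share over all genes with more than 1 probe set was not computed, so this count does not measure disagreement. Of the 9 member probe sets at an unadjusted p of 0.05, 4 were at or above the median signal, 1 each of Smad5, Smad1, Tgfbr2 and Acvr1b. The others, of Gdf5, Bmp10, Bmp7, Bmp8b and Acvr2b, were dim.

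The members that passed depended on which knockdown array was read. Knockdown 1 was further from the control mean than knockdown 2 for 44 of 72 member probe sets, against 25760 of all 45037. With knockdown 2 left out, which lets the controls alone set the spread assumed for the single knockdown array, 10 members (13.9%) passed an adjusted p of 0.05 in limma, against 12.8% of all probe sets. They were probe sets of Tgfbr2 (difference 0.46), Inhba (0.53), Tgfb3 (0.39), Smad6 (0.34), Acvr1b (0.30), Gdf5 (0.30), Bmp15 (0.27), Bmp4 (0.23), Smad5 (-0.26) and Tgfb2 (-0.36). The Bmp15 probe set was dim, at percentile 7.4 of signal, and differed by -0.14 in knockdown 2. The other Bmp15 probe sets, also dim, differed by 0.0035 and -0.15 in knockdown 1. With knockdown 1 left out, 4 members (5.56%) passed, against 3.71% of all probe sets. These were of Smad3 (0.28), Smad5 (-0.53), Smad1 (-0.35) and Bmp4 (-0.12). Bmp4 thus passed with opposite signs. The Smad5 probe set passed with the same sign in both fits (adjusted p = 0.0369 and 5.88e-05), which share the control arrays. The shares of members that passed lay near those of all probe sets.

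**Figure D3:**
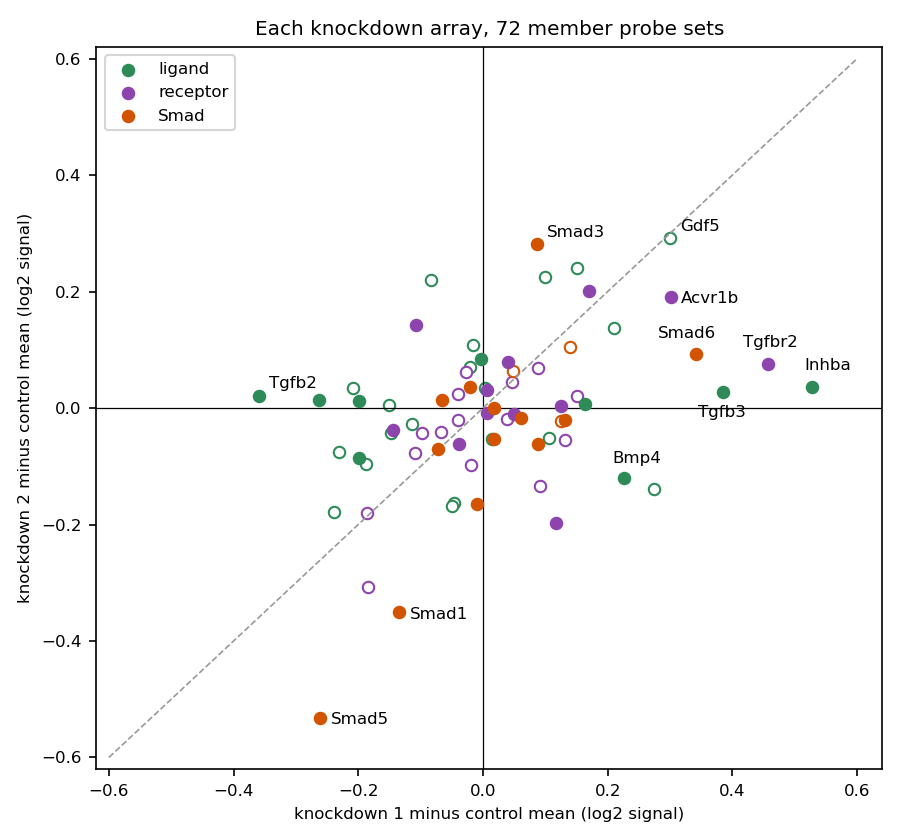
Log2 signal of knockdown 1 (horizontal axis) and of knockdown 2 (vertical axis), each minus the control mean, for the 72 member probe sets; open symbols are below the median signal and the dashed line marks equal shifts. Tgfbr2, Inhba, Tgfb3 and Tgfb2 lie near the horizontal axis, Gdf5 lies near the dashed line, and both axes share the same controls.

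Other genes of the pathway were described with 10 lists, each gene by its probe set of highest signal. None of the genes in these lists passed over all probe sets, as 0 of 17097 genes did on that probe set. The unadjusted p was under 0.05 on the lower side for 2.56% of genes and on the higher side for 4.4%. Both knockdown arrays lay below both controls for 17.1% of genes and above both for 21.2%. The median difference over these genes was 0.01.

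Genes listed as ligand antagonists, some of which are also known as modulators, included Fst, higher on both knockdown arrays, and Bmper, lower on both. Fst, the activin-binding follistatin, read 4.37 and 4.40 with the control duplex against 5.19 and 4.98 after knockdown (difference 0.70, SE 0.10, 1.62-fold higher, unadjusted p = 0.000169, limma adjusted p = 0.338), and both its probe sets had this sign. Bmper, which encodes a BMP-binding endothelial regulator, read 8.79 and 8.78 against 7.71 and 8.29 (difference -0.79, SE 0.16, 1.73-fold lower, unadjusted p = 0.00162, limma adjusted p = 0.441). The follistatin-like gene Fstl1 differed by 0.09 and the BMP modulator gene Twsg1 by 0.19, both above both controls. Of 14 BMP antagonists measured 1 was lower and 1 higher at an unadjusted p of 0.05, with a median of 0.04, and of 4 activin antagonists 0 were lower and 2 higher, with a median of 0.03.

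The lists for latent TGF-beta storage, co-receptors and intracellular regulators held 5 genes at an unadjusted p of 0.05. Of 8 genes listed under latent TGF-beta storage and activation, 1 was higher at an unadjusted p of 0.05 and 0 lower. It was Ltbp2, a matrix protein of the latent TGF-beta binding family by name (4.28 and 4.42 against 5.05 and 4.53, difference 0.44). The median of that list was 0.03. Of 7 co-receptors and pseudoreceptors 1 was lower, Bambi, a decoy receptor (7.73 and 7.69 against 7.06 and 7.60, difference -0.38), and 0 were higher, with a median of 0.04. Of 15 cytoplasmic Smad regulators 1 was higher, the ubiquitin ligase gene Nedd4l (4.76 and 4.71 against 5.52 and 4.90), and 0 lower, with a median of -0.02. Of 8 nuclear corepressors 1 was lower, the Smad-binding repressor gene Zeb2, and 0 higher, with a median of 0.04. Zeb2 read 5.68 and 5.72 against 5.33 and 5.31, alike in both knockdown arrays (difference -0.39, SE 0.08, unadjusted p = 0.00218, limma adjusted p = 0.462), and 1 of its 4 probe sets pointed the other way. Of 6 genes of the TAK1 kinase branch, the non-Smad arm, 1 was higher, the adaptor gene Tab3 (difference 0.37), and 0 lower, with a median of 0.02. Of 8 further family genes 0 were lower and 0 higher, with the procollagen proteinase gene Bmp1 at 0.07 and Nodal at 0.01.

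Genes known as BMP targets differed in both directions. Of the 16 measured, 6 lay below both controls on both knockdown arrays, against 17.1% of genes, and 3 above, against 21.2%. Their median was -0.01 and their median size of difference, sign left out, was 0.11, against 0.07 over all genes. At an unadjusted p of 0.05, 2 were lower, against 2.56% of genes, and 0 higher, against 4.4%. The lower ones were Bambi and the osteoblast factor gene Sp7 (difference -0.46). Bambi is also in the co-receptor list and Sp7 in the osteoblast marker list, and Smad6 and Smad7 are themselves members of the family. Id1, Id2 and Id3, the classic early BMP targets, were named after their values were seen. Id1 read 8.19 and 8.21 with the control duplex against 8.09 and 8.10 after knockdown, and Id3 9.69 and 9.70 against 9.68 and 9.49. Id2 read 7.78 and 7.62 against 7.58 and 7.57, and 1 of 3 probe sets pointed the other way. The 3 genes lay below both controls by -0.10, -0.13 and -0.11 for Id1, Id2 and Id3, with limma adjusted p of 0.743, 0.752 and 0.745. The relative Id4, named in the same way, differed by 0.61 in knockdown 1 and by -0.21 in knockdown 2.

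For genes known as TGF-beta or activin targets, the list median differed between the knockdown arrays. The 14 measured had a median of 0.10, with 0.33 in knockdown 1 and -0.03 in knockdown 2, and at an unadjusted p of 0.05 5 were higher and 2 lower. Acta2, smooth muscle actin, read 9.92 and 9.94 with the control duplex against 10.75 and 10.33 after knockdown (difference 0.61, SE 0.12, 1.52-fold higher, unadjusted p = 0.00106, limma adjusted p = 0.415), and 1 of its 2 probe sets pointed the other way. Ccn2, connective tissue growth factor, read 5.61 and 5.67 against 6.37 and 6.01 (difference 0.55, SE 0.13, limma adjusted p = 0.488). The matrix gene Postn read 11.70 and 11.70 against 12.05 and 11.82, a difference of 0.23. Cdkn1a, the cell cycle inhibitor p21, went the other way, at 7.39 and 7.39 against 6.21 and 6.89 (difference -0.84, SE 0.19, limma adjusted p = 0.488). The remaining 3 of these 7 were Ltbp2, Tgfbi and Col1a1, the last 2 named after their values were seen. Ltbp2 is also in the latent TGF-beta list and Col1a1 in the osteoblast marker list.

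**Figure D4:**
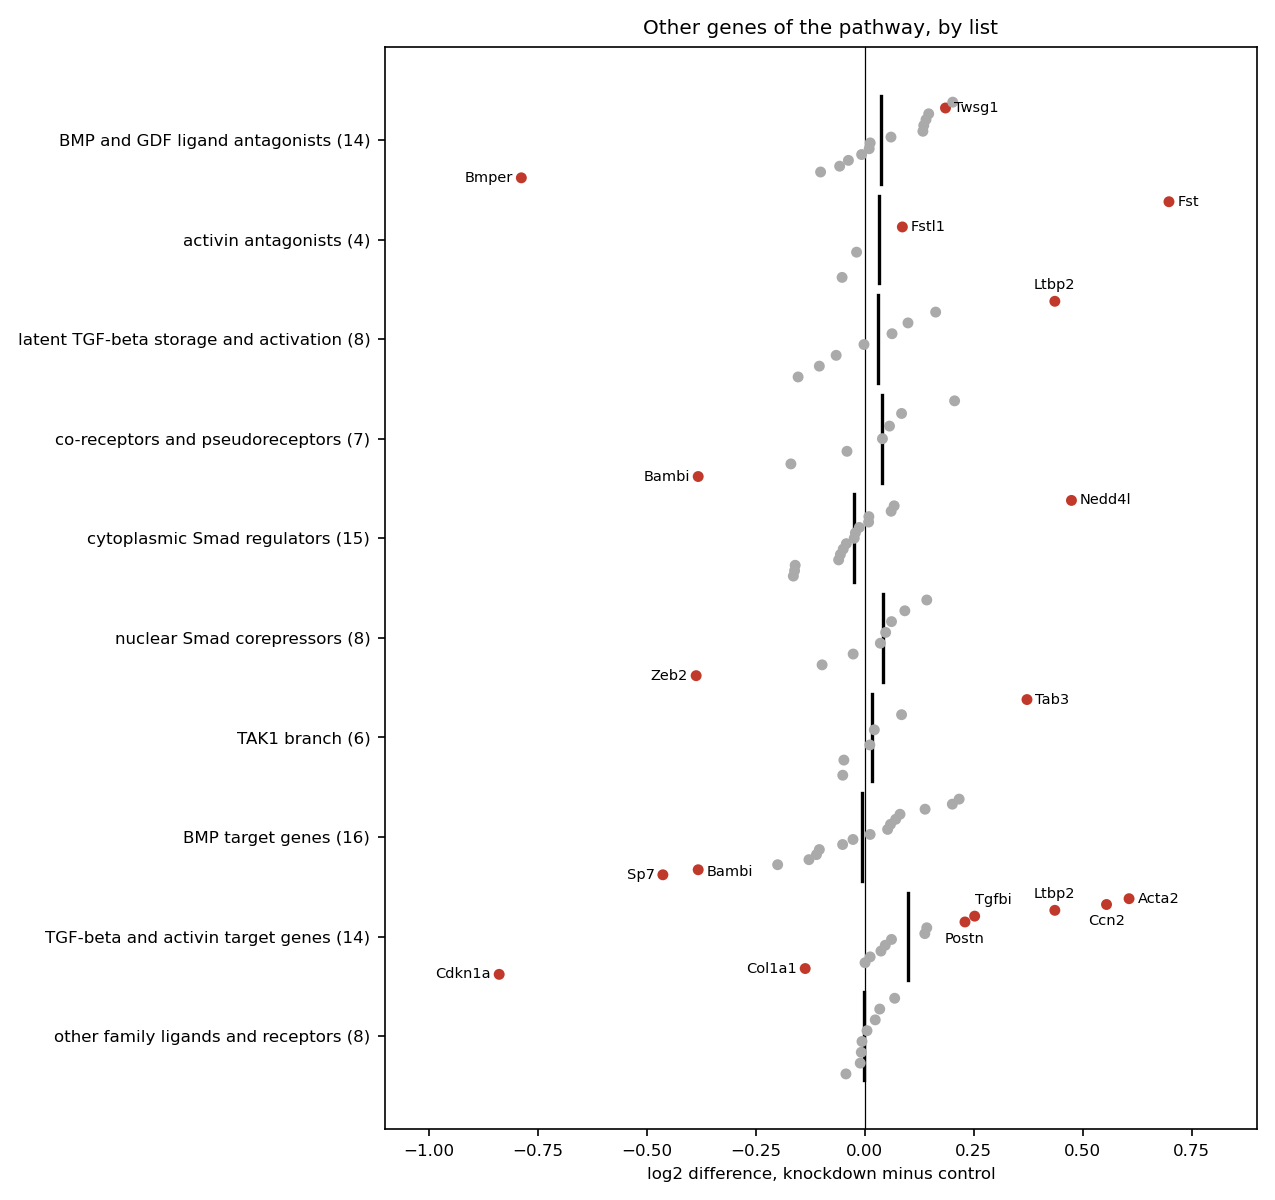
Log2 difference, knockdown minus control, for each gene of 10 lists around the family, with the number of genes measured in brackets. Each point is 1 gene, red points have an unadjusted p under 0.05 and are named, and black bars are list medians, which lie between -0.02 and 0.10.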

How the data were processed

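For each of 4 arrays the authors deposited log2 signals; RMA is named in the submitters' processing notes, and its software is not given in the sources used here. RMA makes the arrays' distributions alike and summarises probes, so differences in total RNA are removed and changes of dim genes are compressed. The log base was read from the range, 2.17 to 12.72. Of 45141 probe sets 104 array controls were left out. Genes were named by a platform annotation that can be old; all 72 member probe sets matched RefSeq gene identifiers of GRCm38.p6, and 0 symbols differed. Knockdown was compared with control over 45037 probe sets by lmFit and eBayes with a variance trend (limma 3.58.1, R 4.3.3). Residual degrees of freedom were 2 and prior ones 5.32. Tests were two-sided with Benjamini-Hochberg adjustment, threshold 0.05 and no filter. The step was tested on simulated data with the same spread in both groups, unlike these arrays, where the knockdown pair differed more. The fit runs over probe sets because the members are probe sets.

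Values by array are given for member genes whose brightest probe set is at or above the median and for member probe sets at an unadjusted p of 0.05; from each list, up to 4 genes at that p, at or above the median, or else the 2 brightest. Chosen with values in view were Id1, Id2, Id3, Id4, Tgfbi, Col1a1, the marker genes and examples of dim members. Members and lists were chosen with earlier results of these data known. Replicate numbers come from the titles. Alternatives were other scalings, a filter, 1 value per gene, other variance settings, a replicate block and leaving out each array.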

Additional observations from a re-analysis of the deposited data

How the results depend on the processing

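No member passed in any alternative that kept all 4 arrays, or without either control. The number of probe sets passing was 1 and went to 0 with 1 probe set or the mean of probe sets per gene or without the variance trend, to 3 with robust eBayes or an adjusted p of 0.1, and to 2 with the replicate block. Same-numbered arrays did not deviate together (correlation 0.01 over probe sets at or above the median). The labels do not say whether these arrays were paired, and the correlation cannot settle it. Under the block, which leaves fewer residual degrees of freedom, 0 members passed. Leaving out 1 array moved it between 0 and 5749, and the members passing between 0 and 10. Members higher at an unadjusted p of 0.05 numbered 5, but 1 with probe sets under percentile 40 of signal left out, 2 with the brightest probe set and 1 with the mean per gene, and between 0 and 10 without 1 array. Members lower numbered 4, but 1 with either value per gene, and between 1 and 6 without 1 array. The members' median was 0.02 with either value per gene (0.0188 and 0.0224) and between -0.0040 and 0.0266 without 1 array.

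Of 31 named member probe sets 18 kept their direction without each array in turn. The other 13 did not: Acvr1 (-0.0516 to 0.0890), Acvr2b (-0.0687 to 0.0666), Bmp4 (-0.1193 to 0.2268), Bmp7 (-0.0038 to 0.0849), Bmp8a (-0.2860 to 0.0370), Bmpr2 (-0.0107 to 0.0491), Gdf11 (-0.1982 to 0.0114), Gdf9 (-0.0288 to 0.2003), Smad2 (-0.0562 to 0.0210), Smad4 (-0.0202 to 0.1315), Smad7 (-0.0623 to 0.0879), Tgfb2 (-0.3599 to 0.0204) and Tgfbr3 (-0.1076 to 0.1434). With all arrays, Bmpr2 turned to -0.0105 with the mean of probe sets, and Acvr2b to 0.0020 with quantile normalization and 0.0025 with median centring. The cause was not tested. With 2 arrays a group, their number limits the precision.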
